A study of Bos taurus with 4 samples.

Results

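In the muscle of 4 Angus steers, 52 of 24616 genes had a value of at least 10 in both grass-fed libraries and no read in either grain-fed library, against 4 genes for the opposite pattern. With 1 read or more in both libraries of a diet in place of that limit, 1084 genes had reads on grass alone, or 8.70% of 12453 genes, and 72 on grain alone, or 0.748% of 9628. Counting genes read in 1 or both libraries of a diet, the numbers were 3090 on grass alone, or 19.9% of 15519 genes, and 769 on grain alone, or 5.83% of 13198. The grass-fed libraries held more reads on genes than the grain-fed ones. On the deposited scale, which brings libraries to a common size, 1 read was worth 0.764 and 0.723 in grass-fed libraries 1 and 2. In grain-fed libraries 1 and 2 it was worth 1.31 and 1.38, so the grass-fed libraries were the larger ones by that scaling too. The part of these size differences in the counts was not tested. The 52 genes were chosen by their own deposited values, at least 10 in both grass-fed libraries and under 0.5 in both grain-fed libraries. RBP2, VIL1, FCGBP, CDHR5 and CCL5 were set aside by name, which removed no gene, since none of the 5 met the limits. CDHR5 had a grain-fed value above the limit, and the other 4 had a grass-fed value below it. As the diets chose these genes, the differences between the diets are a description, and the fit across all genes given at the end is no independent test of them.

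The libraries came from longissimus dorsi muscle of Aberdeen Angus steers of 1 closed herd, 2 labelled Grass-fed and 2 labelled Grain-fed. All calves had the same diet up to weaning and were then assigned at random to a single regimen until slaughter. According to the authors, steers on grass took longer to reach slaughter weight. Among the steers they profiled for metabolites, those on grain were younger. They also name the slaughter season as a possible influence. Diet can therefore not be told apart from age or time of slaughter here, and the part of these in the counts was not tested. The Grass-fed regimen was forage only, mainly alfalfa, on pasture or stored for the winter. The Grain-fed regimen combined corn, as silage and as shelled grain, with soybean and a mineral supplement. The deposited columns name the diet and not the steer, so libraries 1 and 2 of a diet are the numbers of those columns.

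The longissimus dorsi is a back muscle made largely of long multinucleate fibres, with blood vessels, nerves, fat, connective tissue and immune cells between them. A whole piece of such muscle gives a mixture of the RNA of all these cells. Abundant fibre transcripts take a large share of the reads in such a mixture, and a gene of a rare cell type or of low activity may be read in one piece and missed in another. In bulk samples, fewer cells of a type and less RNA per cell cannot be told apart.

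The deposited values are pseudo-counts: the authors brought the counts of all libraries, of both diets, to a common size with a statistical model. Undoing that step gave whole numbers of reads for 100% of the genes that had any, at a relative tolerance of 1e-05. From 5683894 to 7447453 reads per library fell on genes. These totals leave out reads that fell outside genes, so their order is not that of the sequencing depth. The grass-fed libraries had more reads on genes and also detected more genes, with reads for 14485 and 13487 genes against 11625 and 11201 genes in the grain-fed libraries. On the deposited scale, a value of 10 was reached with as few as 13 reads in grass-fed library 1, 14 in library 2 of that diet and 8 in each grain-fed library. The same limit therefore asked for fewer reads when the diets were swapped. The cells behind the genes cannot be named here: the files give Ensembl identifiers only, 0 of them are paired with a symbol in the reference table, and the marker lists of 16 cell types and functions, that of skeletal muscle included, were not applied.

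All 52 genes had 0 reads in both grain-fed libraries. For a gene not chosen on its count, 0 reads over both libraries allow up to 3 reads, or 0.246 reads per 1000000, and this limit covers counting error only. For the 52 genes it served only as a floor. The grass-fed pseudo-counts of the 52 genes had a median of 19.8 in library 1, with a range from 11.4 to 78.0, and a median of 15.9 in library 2, with a range from 10.0 to 53.6. These values are low. In reads, the medians were 26 and 22, and the sum of both grass-fed libraries ran from 31 to 122 reads per gene. Together, the 52 genes took 1550 reads in library 1 and 1425 reads in library 2, which are 229 and 191 reads per 1000000. No single gene accounted for the total, as the 10 highest held 32.5% of the reads. Values were not divided by gene length, so the order of the genes is one of reads and not of transcripts.

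**Figure D1:**
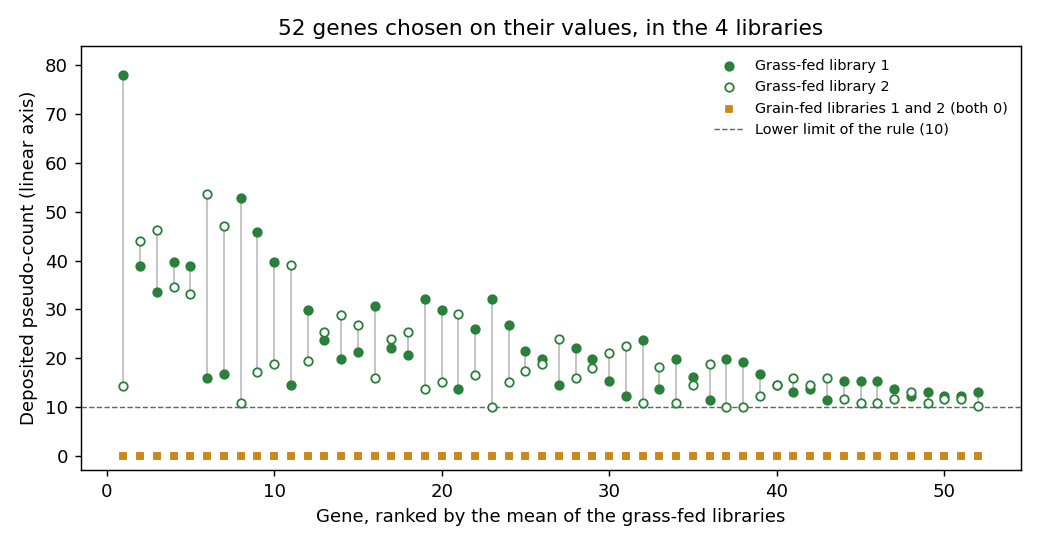
Deposited pseudo-counts (linear axis) of the 52 genes in the 4 libraries, with genes ranked along the x axis by the mean of the grass-fed libraries, filled and open circles for grass-fed libraries 1 and 2, and squares for the grain-fed libraries. All squares lie at 0, and most circles lie between 10 and 30, with wider gaps between the circles at the left.

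The gene with the highest mean, ENSBTAG00000046158, had pseudo-counts of 78.0 and 14.3 in grass-fed libraries 1 and 2, from 102 and 20 reads. Library 1 was 5.45-fold above library 2, the widest gap among the 52 genes, so its place at the top rests on 1 library. The gene with the next highest mean, ENSBTAG00000006359, had 38.9 and 44.1, from 51 and 61 reads. Here the grass-fed libraries differed 1.13-fold, within counting error. Both genes were at 0 in grain-fed libraries 1 and 2. The genes ranked 3 to 5 were also close in both libraries, with 33.5 and 46.3 for the first of them, 39.7 and 34.7 for the next, and 38.9 and 33.2 for the last. These 3 and ENSBTAG00000006359 were the only 4 of the 52 genes at 30 or more in both grass-fed libraries. At the low end, 22 genes were under 20 in both.

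As no grain-fed read was counted, a fold change has only a lower bound, computed against 3 reads over both grain-fed libraries. By share of reads, the grass-fed level of ENSBTAG00000046158 was at least 34.9-fold higher and that of ENSBTAG00000006359 at least 32.1-fold higher. Over the 52 genes the bound ran from 8.87-fold to 34.9-fold, with a median of 14.9-fold. With library 2 alone on the grass-fed side and the same floor, the bound of ENSBTAG00000046158 fell to 10.9-fold, and with library 1 alone it was 61.3-fold. That of ENSBTAG00000006359 was 33.3-fold and 30.6-fold. With the library sizes that the deposited values imply in place of the read totals, the same bounds were smaller, from 5.70-fold to 22.4-fold with a median of 9.57-fold.

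The grass-fed libraries were within 2-fold of each other for 41 of the 52 genes, and within 1.5-fold for 30. Of all 8238 genes at 10 or more in both grass-fed libraries, 84.9% were within 2-fold. Library 1 had the higher value for 32 genes and library 2 for 20, and the median log2 ratio of library 1 over library 2 was 0.17. Among those 8238 genes, that median was -0.07. Library 1 held 47.6% of the reads of both grass-fed libraries, and the exact 95% binomial interval of its share of a gene's reads included that percentage for 37 of the 52 genes. For 11 genes the share was above it and for 4 below it, which makes 28.8% of the 52 genes outside counting error. The same interval left out that percentage for 52% of all 8238 genes, with 2048 above it and 2232 below it. Of the 3193 genes with a mean under 50, the range that holds the 52 genes, it did so for 38.7%, with 715 above and 521 below, so low genes in general also leaned towards library 1. More reads give narrower intervals, so these percentages also depend on the level. The gaps varied with the level. Of the 9 genes whose mean was 30 or more, 44.4% were within 2-fold, against 71.7% of all 1405 genes at 10 or more in both libraries with a mean between 30 and 50. Between 20 and 30, it was 66.7% of the 15 genes and 71.9% of all 1006. Of the 28 genes with a mean under 20, 96.4% were within 2-fold, against 89.3% of all 782 such genes. For 4 genes library 2 was over 2-fold above library 1. They had 15.9 and 53.6, 16.7 and 47.1, 14.4 and 39.1, and 13.7 and 29.0 in libraries 1 and 2. For 7 genes library 1 was over 2-fold above library 2. Besides ENSBTAG00000046158, the highest of them had 52.8 and 10.7, 45.9 and 17.2, and 39.7 and 18.7. The gaps thus ran in both directions. The 10 genes with the closest values differed by at most 1.11-fold, and the closest had 14.5 and 14.4, from 19 and 20 reads. In the band under 20 both values lie close above the limit of 10, which bounds how far apart they can be.

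**Figure D2:**
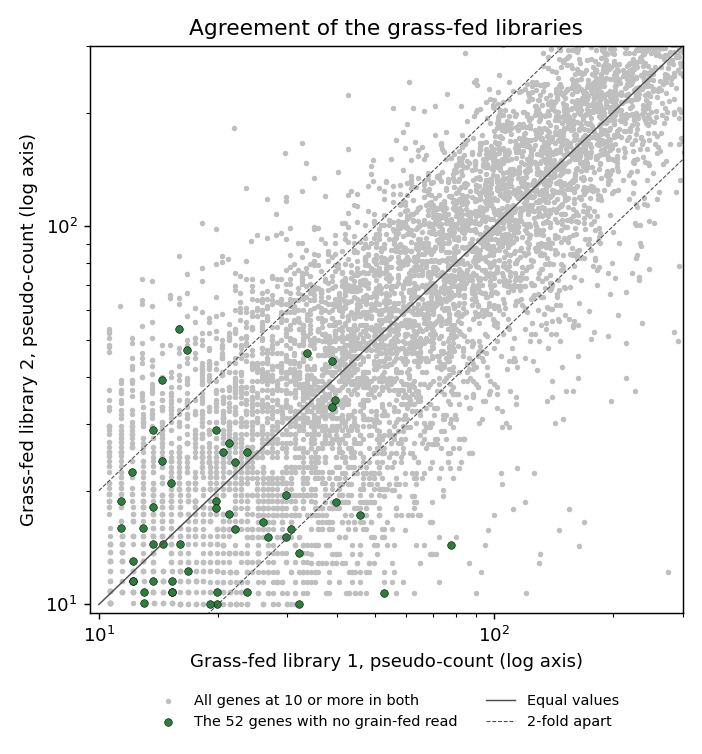
Pseudo-counts of grass-fed library 1 (x axis, log) against grass-fed library 2 (y axis, log), grey for the genes at 10 or more in both libraries and green for the 52 genes with no grain-fed read, with the axes ending above the highest of the 52 genes. The green points lie at the low corner of the grey cloud, with 41 of 52 between the dashed lines that mark a 2-fold gap.

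The 52 genes were a minority of the genes that each grass-fed library held at 10 or more and the grain-fed libraries did not read. At 10 or more in grass-fed library 1, 549 genes had no grain-fed read, and 9.47% of them were also at 10 or more in library 2. At 10 or more in grass-fed library 2 there were 196 such genes, and 26.5% of them were at 10 or more in library 1. The libraries were unlike in what they did not share. Of the 549 genes of library 1, 315 had no read in library 2, whereas of the 196 genes of library 2, 31 had no read in library 1. Grass-fed library 1 thus stood apart in the number of genes it read alone. In the grain-fed group, 70 genes of library 1 and 84 of library 2 had no grass-fed read, and the 4 shared genes were 5.71% and 4.76% of them.

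**Figure D3:**
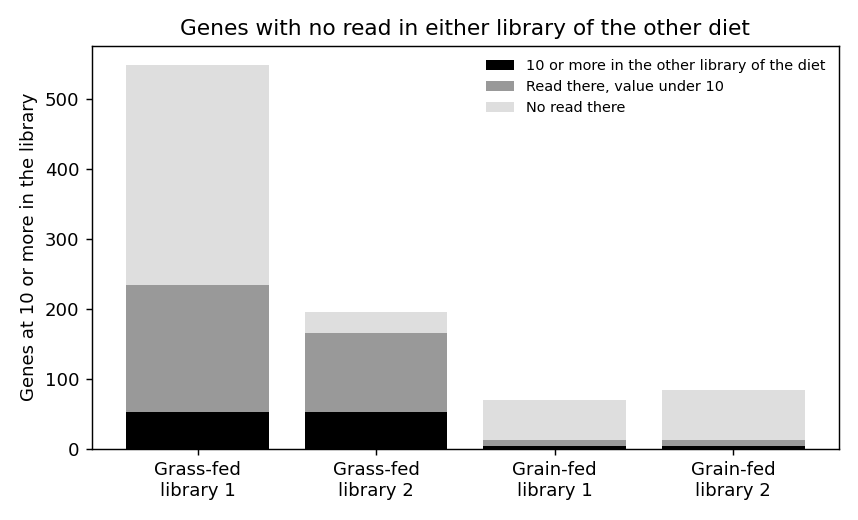
Number of genes (y axis) at 10 or more in each library (x axis) with no read in either library of the other diet, split by the other library of the same diet into 10 or more (black), read but under 10 (dark grey) and no read (light grey). The black part is 52 genes for either grass-fed library and 4 for either grain-fed library, and the light part is widest for grass-fed library 1.

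With the diets swapped, 4 genes met the rule. They are 0.0605% of the 6616 genes at 10 or more in both grain-fed libraries, and the 52 genes are 0.631% of the 8238 genes at 10 or more in both grass-fed libraries. KRT5 (ENSBTAG00000038384), a keratin of the basal layer of stratified epithelia, had pseudo-counts of 131 and 261 in grain-fed libraries 1 and 2. CA12 (ENSBTAG00000019390), a membrane-bound carbonic anhydrase, had 93.1 and 155. The other 2 genes had 111 and 22.3, and 61.4 and 20.9. All 4 had 0 reads in both grass-fed libraries, and each had a share of reads in grain-fed library 1 whose 95% binomial interval left out the share of that library in all reads. The same was found for 69.3% of all 6616 genes at 10 or more in both grain-fed libraries. Those libraries were within 2-fold of each other for 57.4% of the 6616 genes and for 2 of the 4. Against a floor of 3 reads over both grass-fed libraries, their folds by share of reads ran from 24.1-fold to 112-fold. With either grain-fed library alone they ran from 10.9-fold to 137-fold. On the library sizes of the deposited values they ran from 37.4-fold to 175-fold. By mean pseudo-count 3 of the 4 lay above all of the 52 genes, on a scale where a grain-fed read counts for more than a grass-fed one. By share of reads 2 of the 4 did, and the levels overlapped, with 5.08 to 23.7 reads per 1000000 for the 4 and 2.18 to 8.58 for the 52. With the limits applied to recovered reads, 110 genes met the rule and again 4 its reverse. At a lower limit of 50 in place of 10, the order turned, with 0 genes on the grass-fed side and 2, KRT5 and CA12, on the grain-fed side.

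The limit of 0 grain-fed reads did not fall at a gap in the data. Of the genes at 10 or more in both grass-fed libraries, 52 had 0 grain-fed reads, 50 had 1, 49 had 2 and 57 had 3, and each count from 4 to 10 reads held between 51 and 68 genes. In the swapped direction, each count from 0 to 10 reads held between 3 and 8 genes. The larger number on the grass-fed side was therefore seen at every such count, and not at 0 alone. The share without a grain-fed read fell with the level, from 3.58% of 782 genes with a grass-fed mean of 10 to 20, to 1.49% of 1006 genes at 20 to 30 and 0.641% of 1405 genes at 30 to 50. Above 50, none of the 1708 genes at 50 to 100 and none of the 3337 higher genes lacked grain-fed reads.

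**Figure D4:**
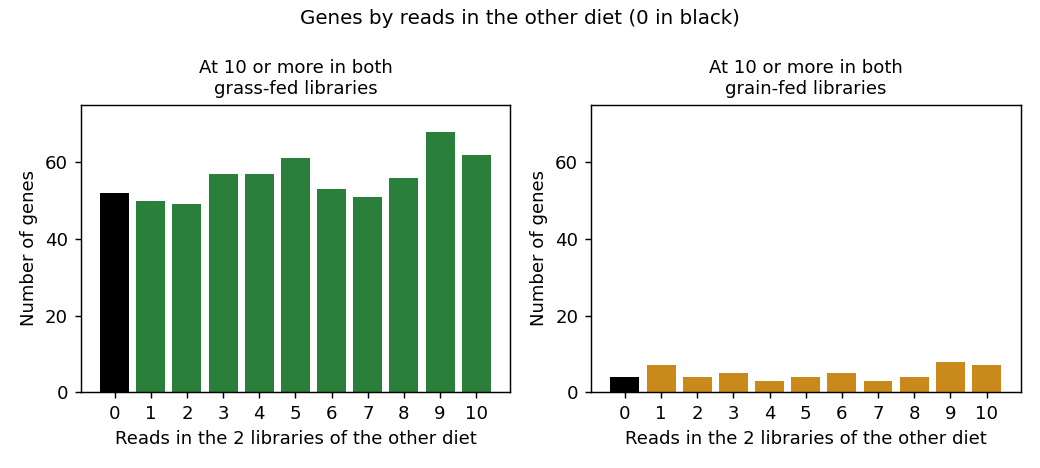
Number of genes (y axis) by reads summed over both libraries of the other diet (x axis, 0 to 10 reads), for the genes at 10 or more in both grass-fed libraries (left) and in both grain-fed libraries (right). The black bars are the 52 and the 4 genes. The bars run from 49 to 68 genes on the left and from 3 to 8 on the right.

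The genes next to the limits differed from the chosen ones by a few reads. The lowest grass-fed values inside were 10.0 in library 2, from 14 reads, beside 32.1, 19.9 and 19.1 in library 1. Just outside were 3 genes with 9.90, 9.90 and 9.87 in grass-fed library 1, from 13 reads each, and no grain-fed read. The nearest genes past the grain-fed limit had 1 read in grain-fed library 1, a pseudo-count of 1.28, and one of them had 76.4 and 44.7 in the grass-fed libraries, a higher mean than any of the 52 genes.

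Across all genes, log2 values per 1000000 were fitted with limma, and 43 of the 52 genes passed its filter on low values, an average over the 4 libraries of 1 per 1000000 or more. Of the 10461 genes tested, 0 were called at an adjusted p-value under 0.1, or 0% in the background, and 0 of the 43 genes were called, with adjusted p-values from 0.483 to 0.597 after Benjamini-Hochberg adjustment. At an unadjusted p-value under 0.05, 29 of the 43 were higher in the grass-fed group, against 4.46% of all genes tested. The rule used the same contrast, and the 43 genes passed the filter only through the grass-fed group, so nothing is read from these counts or from their fold changes. The scale is log2(value + 1), which understates the change of low genes. The median log2 fold change of all genes tested was 0.11, and 0.67 with the columns scaled to the same total. The grass-fed libraries were both higher than either grain-fed library in 24.9% of the 16288 genes that had reads, and both lower than either for 16.8%. That order is fixed by the rule for the 52 genes and, in reverse, for the 4. The fitted values for the 2 genes named are a log2 fold change of 2.64 with a standard error of 0.92 for ENSBTAG00000046158 (adjusted p = 0.533 from limma) and 2.83 with a standard error of 0.76 for ENSBTAG00000006359 (adjusted p = 0.483 from limma). With 2 libraries a diet, the smallest p-value of an exact permutation test (two-sided) is 0.333.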

How the data were processed

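RNA-Seq was run on longissimus dorsi muscle of 4 steers. According to the methods and the labels, the authors aligned 50-base reads with Bowtie to the BosTau6 (UMD3.1) genome and counted them per gene with GenomicRanges, in versions that the sources used here do not give. As a signal, the deposited file holds pseudo-counts that the authors made with edgeR. Here the adjustment was inverted in Python 3.11.15 with SciPy 1.17.1, fitting a common dispersion of 0.605, and was checked on simulated reads. limma 3.58.1 in R 4.3.3 was fitted with a mean-variance trend to log2(value per 1000000 of the mean column total + 1). Intervals and floors cover counting error only, since PCR reads are not independent molecules. Per the labels, RNA was extracted from each animal on its own, so replicates are steers.

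The genes, lists and limits were chosen with earlier results of these data known. The planned rule for named genes relied on symbols, which the files do not pair, so 2 identifiers are printed. KRT5 was paired through the primer list of the study and CA12 through a log ratio that matches 1 gene in its supplement. Apart from that pairing, the study's own fold changes and p-values are not used here, and no sequence is printed. Alternatives were other limits and scales, recovered reads, other limma settings and each library left out in turn.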

Additional observations from a re-analysis of the deposited data

How the results depend on the processing

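The number of genes at 10 or more in both grass-fed libraries with no grain-fed read was 52 and followed the limits. It was 195 at a lower limit of 5, 8 at 20 and 0 at 50, 113 with under 2 allowed in the grain-fed libraries, 80 with columns set to an equal total and 110 with the limits applied to recovered reads. The number for the swapped rule was 4 with recovered reads, rescaled columns, a lower limit of 20 or exactly 0 in the grass-fed libraries. It moved to 11 at a lower limit of 5, 2 at 50 and 18 with under 2 allowed in the grass-fed libraries. At a lower limit of 50 the order of the diets was thus reversed, with 0 genes on grass and 2 on grain. With each library left out in turn and the limits kept for the others, the grass-fed number lay between 196 and 549, highest without grass-fed library 2, and the swapped number between 18 and 84. Fewer libraries have to meet the limits there, so both numbers can only rise.

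In limma, none of the 52 genes that were tested was called under pseudocounts of 0.5 and 4, rescaled columns, upper quartile scaling, no trend, robust fitting, a threshold of 0.05 or recovered reads, which tested 43 to 52 of them. Without a filter all 52 were tested and 0 called, among 122 calls in 24616 genes, 112 of them higher on grass. Only 16288 of those genes had reads, and genes with none entered the fit, so nothing is read from the direction of its calls. With a library left out, 15 to 52 were tested and 0 called. The lone library took its spread from the other diet, and no gene at all was called, so these fits say nothing of stability. With a mean of at least 5 per 1000000 none of the 52 was tested. The folds over the floor with a single grass-fed library were chosen after seeing the data. The median log2 ratio between the grass-fed libraries was 0.23 by share of column total and 0.09 in recovered reads, against 0.17. Not run were the scaling without mitochondrial genes and the lists at a lower limit of 5, as both need gene names. No paired analysis was possible because the labels give no replicate number that occurs in both diets. At this depth 3 unseen grain-fed reads would be 0.246 reads per 1000000.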
